A study of Homo sapiens and Mus musculus with 28 samples.

Results

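The genes described here build and anchor squamous epithelium: 47 human genes for keratins, for the desmosomes and hemidesmosomes that keratins attach to, and for the cornified envelope that forms as squamous cells mature. They were chosen by symbol, 1 row per Ensembl ID, and all 47 were found among the 35135 IDs of the human files, with 45 of them under the same symbol among the 32138 IDs of the mouse files. The human files come from SCC1, an established cell line of head and neck squamous cell carcinoma (HNSCC), and the mouse files from autochthonous HNSCC, tumors that arose in the animal itself. There were 28 RNA libraries in 10 groups. In the first SCC1 experiment, 5 groups of 3 libraries each held control cells with vehicle (Ctrl_Vehicle), REXO4 knockouts 1 and 2 with vehicle (R4KO_1_Vehicle, R4KO_2_Vehicle), and cultures labelled as knockout 2 with H-151 (KO_2_H151) or BX-795 (KO_2_BX_795). In the other SCC1 experiment, 3 groups of 3 libraries held Vehicle, iR4 and H151_iR4 cultures, where iR4 is kept as the labels write it and is not spelled out there. The mouse tumors were 2 knockout (R4KO) and 2 wild-type (Wt) libraries. REXO4 is an RNA exonuclease of the nucleolus; H-151 is a covalent inhibitor of STING, an adaptor in the sensing of cytosolic DNA, and BX-795 inhibits TBK1, the kinase downstream of STING, along with other kinases. The labels give no dose, treatment time, guide, clone, mouse age, strain, Cre driver or floxed allele, and do not say whether replicates are separate cultures, so that p-values in SCC1 measure only the spread between these libraries.

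In stratified epithelium the basal cells make keratins 5 and 14 and hold on to the basement membrane through hemidesmosomes, in which integrin alpha6 beta4 and collagen XVII bind laminin-332. The transcription factor p63, from TP63, maintains this basal identity. As cells move up they switch keratins, to KRT1 and KRT10 in skin or to KRT4 and KRT13 in oral mucosa, exchange desmosomal cadherins, and cross-link envelope proteins such as involucrin with transglutaminases, under factors that include KLF4 and GRHL3. Wounded or hyperproliferative epithelium makes KRT6, KRT16 and KRT17, and squamous carcinomas keep parts of all these programs. In the text the 11 basal genes (basal keratins, hemidesmosome and laminin-332 genes, TP63 and SOX2) are kept apart from the 17 differentiated genes (suprabasal keratins, envelope genes, kallikreins, KLF4 and GRHL3).

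Library depth was 16041474 to 27937636 counts in SCC1 and 16728311 to 18193703 in mouse. In the knockout experiment depth split by treatment, at 17470214 to 18029973 counts in the vehicle libraries and 21355791 to 27937636 in the inhibitor libraries. Levels are given as CPM, counts scaled to library size with TMM factors within the libraries of an experiment, so levels in the SCC1 experiments were normalized separately and only differences within each are tested. REXO4 itself stood at 71.9 to 77.92 CPM in Ctrl_Vehicle, 9.33 to 9.99 in R4KO_1_Vehicle and 5.03 to 7.11 in R4KO_2_Vehicle. It stood higher, at 17.01 to 19.78 CPM, in the 6 inhibitor libraries of knockout 2. These 6 libraries also held 10.12 to 13.54 CPM of PXDN. This gene was at 7.41 to 9.01 CPM in R4KO_1_Vehicle but at 0.053 to 0.267 in R4KO_2_Vehicle and 0 to 0.06 in Ctrl_Vehicle. The inhibitor cultures thus differed from their labelled vehicle culture in the level of the targeted gene and of a gene that separates the knockouts. Results on the inhibitors are therefore set against both knockouts below. In the iR4 experiment REXO4 was at 90.08 to 96.44 CPM in Vehicle, 56.94 to 61.92 in iR4 and 86.98 to 91.01 in H151_iR4. The squamous markers KRT5, KRT14, TP63, CDH1, EPCAM, SFN, PKP1 and DSG3 were all above 0 in the SCC1 Ctrl_Vehicle libraries, and summed to 2652 to 2832 CPM. PKP1 was the lowest at 0.238 to 0.476 CPM, which rests on 4 to 8 counts per library. The mesenchymal markers VIM, CDH2, ZEB1, ZEB2, TWIST1, FN1, SNAI2 and COL1A1 were above 0 there too and summed to 479.5 to 522 CPM. Of these, VIM was at 296.6 to 340 CPM.

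Promoter sequence was at hand in the RefSeq table (GRCh38.p14) for 28 of the 47 genes. The 250 bases before each start were searched on both strands for 4 motifs: TGANTCA, the site of AP-1 factors; TATAAA, the TATA box; GGGCGG, the GC box; and AACNGGTT, the site of grainyhead factors such as GRHL3. The motifs do not overlap one another in the windows shown. The 28 genes have 36 such windows, since some have several starts. AP-1 letters were found in 6 of the 36 windows (16.7%) against 6.57% of all 35116 windows in the table, TATA letters in 7 (19.4% against 10.7%) and GC boxes in 18 (50.0% against 42.6%); no member window held AACNGGTT, which 1.49% of all windows hold. The AP-1 matches were in IVL, SPRR1A, SPRR1B, SPRR3, LAMA3 and LAMB3, the first 4 of which are envelope genes. A match is a description of the letters and not a bound site. The 200 bases before the start are shown for SOX2 (chr3:181711725-181711924, plus strand), KRT10 (chr17:40822615-40822814, minus) and the envelope genes IVL (chr1:152908346-152908545, plus) and SPRR1B (chr1:153031003-153031202, plus). SOX2 and KRT10 were chosen because their change in the H-151 cultures differed between the SCC1 experiments. IVL and SPRR1B were chosen because they were almost silent in SCC1. The bases run 5′ to 3′ on the gene's strand, with motif matches in capitals.
SOX2: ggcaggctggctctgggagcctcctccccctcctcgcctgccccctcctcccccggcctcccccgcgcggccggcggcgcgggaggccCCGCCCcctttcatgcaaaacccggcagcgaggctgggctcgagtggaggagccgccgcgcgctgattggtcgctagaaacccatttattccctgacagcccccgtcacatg
KRT10: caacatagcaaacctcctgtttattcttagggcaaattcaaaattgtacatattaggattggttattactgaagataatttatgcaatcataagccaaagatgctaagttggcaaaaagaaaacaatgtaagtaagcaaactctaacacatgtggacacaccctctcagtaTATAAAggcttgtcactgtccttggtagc
IVL: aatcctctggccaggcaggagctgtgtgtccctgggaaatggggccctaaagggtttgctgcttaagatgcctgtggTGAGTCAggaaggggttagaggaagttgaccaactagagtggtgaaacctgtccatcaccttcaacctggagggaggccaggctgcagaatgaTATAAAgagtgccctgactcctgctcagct
SPRR1B: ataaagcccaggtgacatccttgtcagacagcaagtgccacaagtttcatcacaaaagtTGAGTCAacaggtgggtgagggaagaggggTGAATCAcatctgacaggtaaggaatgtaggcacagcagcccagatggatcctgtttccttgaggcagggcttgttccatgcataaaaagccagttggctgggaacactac
The IVL window has an AP-1 match starting 123 bases and a TATA match 30 bases before the start, and SPRR1B has AP-1 matches at 141 and 111 bases. KRT10 has its TATA letters at 29 bases and SOX2 a GC box, read on the other strand, at 112 bases.

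In control SCC1 cells several basal and stress keratins were among the highest members and most late differentiation genes among the lowest, but the groups were not uniform. Lengths were those of all annotated exons of a gene joined, at 6881 bases for KRT8 and 7069 for KRT15 but 2281 for KRT14. Genes with long annotated exons thus rank lower than by CPM alone. In Vehicle, KRT5 (214.3 CPM per kb) was highest, and the simple epithelial keratins KRT7 (181.9), KRT8 (106.0) and KRT18 (96.82) ranked 2, 5 and 7. Per kb of exon, the highest mean levels in Ctrl_Vehicle were those of KRT17 (269.5 CPM per kb), KRT6A (200.8), KRT5 (197.5) and KRT13 (147.8), followed by ITGB4, KRT14, LAMB3 and ITGA6 between 115.9 and 93.04. Other basal and stress genes were far lower per kb there: LAMA3 at 12.5 CPM per kb, SOX2 at 10.01, KRT15 at 8.37, KRT16 at 3.34 and KRT6B at 0.0173. Of the envelope genes only PPL, EVPL and TGM1, which encode periplakin, envoplakin and the transglutaminase of keratinocytes, passed 1 CPM per kb. IVL, SPRR3, TGM3, SPRR1A and PKP1 lay between 0.0136 and 0.0724 CPM per kb, and KRT1 and DSG1 had no count in the 3 Ctrl_Vehicle libraries. These genes, with SPRR1B, were too low to be tested, as were KRT4 in the knockout experiment and KRT6B in the iR4 experiment, which left 38 of the 47 members tested in each experiment and 39 where both were fitted together. The type II keratin genes lie on chromosome 12 (KRT5 at chr12:52514575-52520687, minus strand) and most type I genes on chromosome 17 (KRT14 at chr17:41582279-41586921, minus), in the GENCODE annotation of GRCh38. Several members share ground with a gene on the other strand, among them KRT81 with KRT86, KRT8 with KRT18, KRT7 with KRT7-AS, KRT10 with TMEM99, DSC2 with DSCAS, EVPL with CDK3, ITGB4 with GALK1, PPL with SEC14L5 and GRHL3 with STPG1. The sources used here do not say whether the counting used strand, so reads of such pairs cannot be told apart. The 17 keratin members together took 0.391 to 0.425% of all counts in Ctrl_Vehicle and 0.42 to 0.433% in Vehicle.

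**Figure D1:**
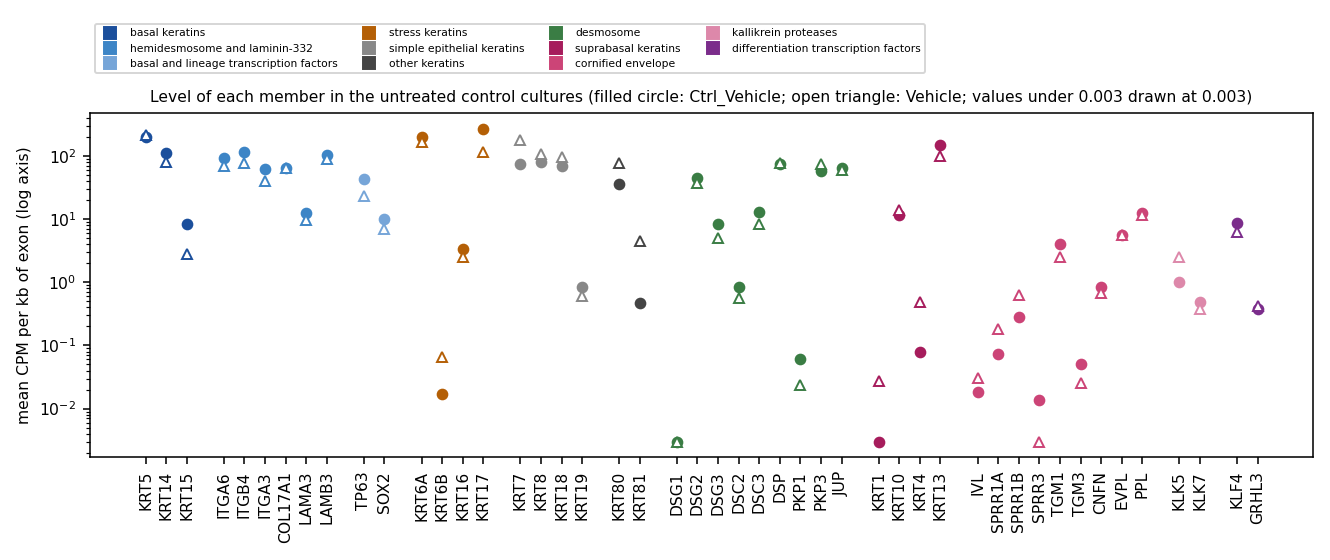
Mean CPM per kb of exon (log axis) of the 47 members in Ctrl_Vehicle (filled circles) and Vehicle (open triangles), 3 libraries each, ordered and colored by role. KRT17, KRT6A, KRT5 and KRT13 stand at the top in Ctrl_Vehicle, and most envelope genes lie below 1 CPM per kb.

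Knockout of REXO4 in SCC1 was followed by lower basal keratins KRT5 and KRT14, lower KRT6A and KRT13, and lower DSC3, with higher KLF4, LAMB3 and DSC2. By edgeR's quasi-likelihood test at an adjusted p under 0.05, 8 of the 38 tested members were higher and 17 lower in R4KO_1_Vehicle than in Ctrl_Vehicle, where 64.5% of all tested genes were called in either direction, 33% higher and 31.4% lower. In R4KO_2_Vehicle 9 were higher and 19 lower, against 66.2% of all genes called, 34% higher and 32.2% lower. The share of members called, 25 and 28 of 38, was thus near that of all genes, and the median log2 fold change of the members was -0.12 and -0.09, beside 0.02 over all genes in both comparisons. The comparisons share the Ctrl_Vehicle libraries, so each is given by its own values.

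Among the basal keratins, KRT5 stood at 806, 886.3 and 850.4 CPM in Ctrl_Vehicle, at 458, 435 and 409.3 in R4KO_1_Vehicle and at 472.7, 456.8 and 478.9 in R4KO_2_Vehicle. All 6 knockout libraries lay below all 3 controls, a log2 fold change of -0.96 ± 0.041 (SE; adjusted p = 2.01e-14) and -0.85 ± 0.041 (8.68e-14). Its partner KRT14 fell further, from 248.1, 269.6 and 236.2 CPM to 100.6, 89.09 and 104.1 and to 122.8, 118.3 and 118.9, again without overlap (-1.36 ± 0.053 and -1.07 ± 0.052). KRT15, another keratin of basal cells, went the other way and was higher in R4KO_2_Vehicle at 79.02, 69.34 and 78.97 CPM than in Ctrl_Vehicle at 49.77, 61.8 and 65.9 (0.36 ± 0.085, adjusted p = 0.000882). In R4KO_1_Vehicle KRT15 differed by 0.25 (adjusted p = 0.0141), a call that was lost without Ctrl_Vehicle replicate 1 (0.14) or without R4KO_1_Vehicle replicate 1 (0.16).

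The genes of basement membrane adhesion did not move together. The integrin chains of the hemidesmosome fell in both knockouts, ITGA6 by 0.91 and 0.59 and ITGB4 by 0.54 and 0.60 on the log2 scale, and so did ITGA3, by 0.33 and 0.32, the alpha chain of the other laminin-332 receptor. LAMB3, the beta chain of laminin-332, rose instead: it was at 498, 500.9 and 454.3 CPM in Ctrl_Vehicle, 565.4, 624 and 808.8 in R4KO_1_Vehicle and 942.6, 1013 and 922.3 in R4KO_2_Vehicle. The groups did not overlap, and the log2 fold changes were 0.46 ± 0.079 (adjusted p = 2.74e-05) and 0.99 ± 0.079 (3.62e-10). LAMA3, the alpha chain, fell by 0.36 in R4KO_1_Vehicle and had a log2 fold change of -0.01 in R4KO_2_Vehicle (adjusted p = 0.811). COL17A1 rose by 0.33 in R4KO_2_Vehicle; in R4KO_1_Vehicle it was at -0.10, and the call there was lost without Ctrl_Vehicle replicate 1 (-0.09), R4KO_1_Vehicle replicate 1 (-0.06) or R4KO_1_Vehicle replicate 2 (-0.10). Of the lineage factors, TP63 fell by 0.55 and 0.31, from 331.5, 317.8 and 319.5 CPM in Ctrl_Vehicle to 191.4 to 249.1 and 238.5 to 273.7. SOX2 fell by 0.63 in R4KO_2_Vehicle and was at -0.24 in R4KO_1_Vehicle (adjusted p = 0.0673).

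KRT6A, a keratin of wounded epithelium, had the largest fall of the 38 tested members in both knockouts. Its libraries were at 588.1, 630.2 and 545.7 CPM in Ctrl_Vehicle, 193.9, 202.2 and 233.5 in R4KO_1_Vehicle and 260.1, 261.5 and 239.1 in R4KO_2_Vehicle, with log2 fold changes of -1.49 ± 0.058 and -1.21 ± 0.057. Its near-identical copies KRT6B and KRT6C had only 2 and 3 counts over the Ctrl_Vehicle group, and reads shared between the copies could be assigned to either. KRT17 fell by 0.22 and 0.20, while KRT16 rose by 0.62 in R4KO_2_Vehicle and was at 0.23 in R4KO_1_Vehicle (adjusted p = 0.0566); KRT14, KRT16 and KRT17 are close in sequence, so their split is uncertain too. Among the keratins of simple epithelia, KRT7 fell by 0.44 and 0.91. KRT8 rose by 0.13 in R4KO_1_Vehicle and was at -0.03 in R4KO_2_Vehicle (adjusted p = 0.541), and its filament partner KRT18 fell by 0.22 in R4KO_2_Vehicle. In R4KO_1_Vehicle KRT18 was at -0.14, a call lost without Ctrl_Vehicle replicate 1 (-0.12), R4KO_1_Vehicle replicate 1 (-0.09) or R4KO_1_Vehicle replicate 2 (-0.13). KRT80 fell by 0.19 in R4KO_2_Vehicle; KRT19 (0.38 and -0.05), KRT81 (0.48 and -0.06) and KRT6B (0.41 and 1.06) did not pass the test in either knockout.

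Among the desmosome genes, DSC3 and DSG3, which lie in 1 cluster of desmosomal cadherin genes on chromosome 18, moved in opposite directions. DSC3, desmocollin 3 of the lower layers, was at 91.91, 85.19 and 95.04 CPM in Ctrl_Vehicle, 41.48, 37.54 and 37.16 in R4KO_1_Vehicle and 48.26, 45.34 and 44.92 in R4KO_2_Vehicle. Every knockout library was below every control, with log2 fold changes of -1.23 ± 0.053 and -0.97 ± 0.052. DSG3, desmoglein 3, the antigen of pemphigus vulgaris, rose from 46.61, 45.91 and 47.82 CPM to 50.22, 57.89 and 55.58 (0.22 ± 0.064, adjusted p = 0.00427) and to 83.26, 88.21 and 78.49 (0.83 ± 0.062). DSC2 rose as well, by 0.48 ± 0.091 and 0.75 ± 0.089, from 10.37, 10.61 and 10.41 CPM to 16.07, 15.04 and 12.7 and to 17.55, 18.77 and 16.49. The plakin DSP, which ties desmosomes to keratin, fell by 0.22 in R4KO_2_Vehicle and was at 0.07 in R4KO_1_Vehicle (adjusted p = 0.109). PKP3, a plakophilin of the desmosomal plaque, fell by 0.27 and 0.30. DSG2 fell by 0.24 in R4KO_1_Vehicle and was at -0.11 in R4KO_2_Vehicle, where its call was lost without Ctrl_Vehicle replicate 1 (-0.09), Ctrl_Vehicle replicate 3 (-0.09) or R4KO_2_Vehicle replicate 3 (-0.10). JUP, plakoglobin, did not pass the test in either (0.03 and 0.07).

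Of the 10 differentiated genes tested, 3 were higher and 2 lower in R4KO_1_Vehicle, and 3 were higher and 3 lower in R4KO_2_Vehicle. KLF4, a transcription factor of the epidermal barrier, had the largest rise, from 32.78, 33.95 and 28.55 CPM in Ctrl_Vehicle to 52.11, 68.04 and 87.59 in R4KO_1_Vehicle (1.12 ± 0.116, adjusted p = 2.32e-08) and 72.44, 80.19 and 79.03 in R4KO_2_Vehicle (1.28 ± 0.115, adjusted p = 2.26e-09). The R4KO_1_Vehicle libraries were spread more widely than the others, but none fell into the range of the controls. KRT13, the oral suprabasal keratin, fell from 368.2, 440.4 and 482.9 CPM to 266.7, 224.4 and 175.1 (-0.95 ± 0.104) and to 224.7, 179.8 and 204.9 (-1.08 ± 0.104), and the transglutaminase gene TGM1 fell by 0.64 and 0.29. KRT10 fell by 0.45 in R4KO_2_Vehicle and was at -0.16 in R4KO_1_Vehicle (adjusted p = 0.121). EVPL (0.06 and 0.00), PPL (-0.07 and 0.14), KLK7 (-0.06 and 0.44) and GRHL3 (-0.24 and 0.30) did not pass the test in either. KLK5, a protease of desquamation, rose by 0.89 in R4KO_1_Vehicle; the envelope gene CNFN was at 0.95 and 0.90 and KLK5 at 0.52 in R4KO_2_Vehicle, calls on levels of at most 3.49 CPM in any of these libraries that did not hold under every setting. For CNFN they were lost without Ctrl_Vehicle replicate 2 (0.81 and 0.76), without R4KO_1_Vehicle replicate 3 (0.82) or without R4KO_2_Vehicle replicate 2 (0.81), and for KLK5 without Ctrl_Vehicle replicate 2 (0.50), Ctrl_Vehicle replicate 3 (0.39), R4KO_2_Vehicle replicate 1 (0.54) or R4KO_2_Vehicle replicate 3 (0.43).

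Between the knockouts, 15 of 38 members were higher and 5 lower in R4KO_2_Vehicle than in R4KO_1_Vehicle, where 31.6% of all genes were called (15.1% higher and 16.6% lower). Of the 11 basal genes 7 were higher and 1 was lower, with a median of 0.24. DSG3 (0.61 ± 0.060), LAMB3 (0.53 ± 0.078) and COL17A1 (0.42 ± 0.037) were higher in R4KO_2_Vehicle, each without overlap of the libraries. COL17A1, the collagen of hemidesmosomes, was at 560.8, 582.9 and 602.7 CPM there and at 412.3, 432.7 and 456.2 in R4KO_1_Vehicle. KRT7 (-0.47 ± 0.057), at 215.7, 221.7 and 228.2 CPM in R4KO_1_Vehicle, was lower. DSP (-0.29 ± 0.037) was lower as well, at 634.1, 645.8 and 644.7 CPM beside 780.9, 795.3 and 775.3, and neither pair of groups overlapped. KRT10 was lower by 0.29 on the log2 scale, from 23.41, 21.37 and 23.35 CPM in R4KO_1_Vehicle to 17.77, 18.5 and 19.44, a call lost without R4KO_2_Vehicle replicate 1 (-0.26, adjusted p = 0.0674).

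**Figure D2:**
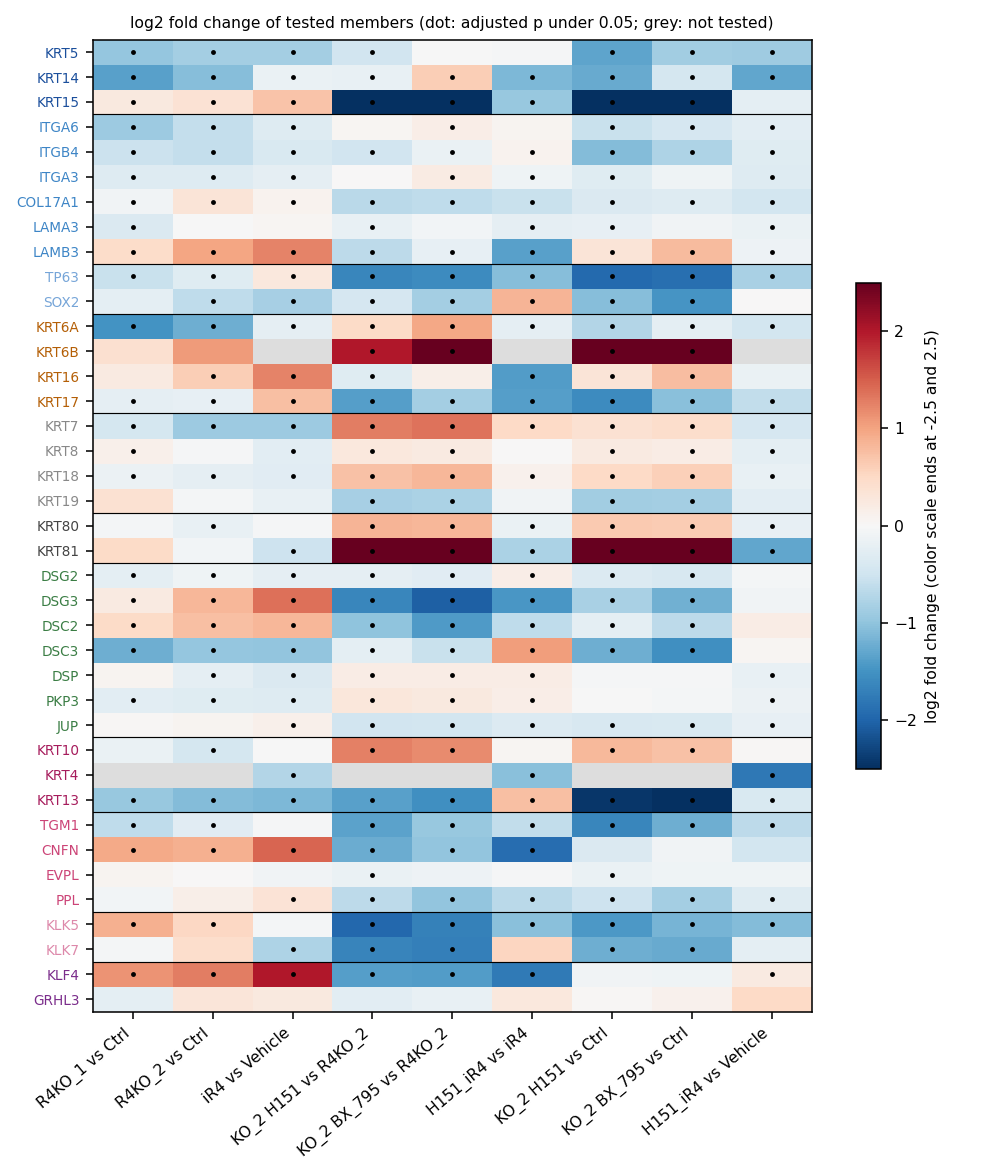
Log2 fold change of each tested member (rows, by role) in 9 SCC1 comparisons (columns), with a dot where the adjusted p was under 0.05 and grey where the gene was not tested. KRT81 rises by 4.20 and KRT15 falls by 3.11 with H-151 in knockout 2, beyond the ends of the color scale.

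In the iR4 cultures, 12 of 38 members were higher and 18 lower than in Vehicle, where 71.9% of all genes were called (37.1% higher and 34.8% lower), and the members' median was -0.13 beside 0.02 over all genes. KLF4, DSG3 and LAMB3 had the largest rises. KLF4 went from 24.39, 21.73 and 22.93 CPM in Vehicle to 95.39, 86.01 and 94.24 in iR4 (2.0 ± 0.055, adjusted p = 4.24e-20), DSG3 from 30.28, 26.19 and 26.79 to 72.74, 64.69 and 78.41 (1.38 ± 0.063, 7.2e-16), and LAMB3 from 427.6, 418.9 and 413.8 to 1030.0, 967.1 and 980.3 (1.24 ± 0.033, 2.14e-20). In each the iR4 libraries lay above all Vehicle libraries. KRT16 rose by 1.24, DSC2 by 0.82, KRT17 by 0.76, KRT15 by 0.71, PPL by 0.34 and TP63 by 0.26, and CNFN by 1.45, at 0.957 to 1.23 CPM in iR4.

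The largest falls were those of KRT13, DSC3 and KRT7. KRT13 went from 292.5, 306 and 263.9 CPM to 134.3, 130.8 and 129.8 (-1.13 ± 0.063), DSC3 from 59.64, 61.42 and 58.51 to 30.61, 30.21 and 29.63 (-0.99 ± 0.048), and KRT7 from 757.9, 750.4 and 725.5 to 399.7, 406.5 and 386.1 (-0.91 ± 0.044). KRT5 fell by 0.86, from 865.8 to 955.7 CPM in Vehicle to 483.8 to 532.3 in iR4, and SOX2 by 0.83; none of these groups overlapped. KRT14 and KRT6A fell by only 0.16 and 0.23. KRT81, a hair keratin, fell by 0.51, from 8.18 to 9.82 CPM to 5.63 to 6.71. Involucrin (IVL), too low to be tested, had 4 counts over the 3 Vehicle libraries and 20 over the 3 iR4 libraries.

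The R4KO_2 and iR4 comparisons share no library. Of the 37 members tested in both, 22 (59.5%) were called in the same direction, 8 higher and 14 lower, and 2 (5.41%) in opposite directions; over all 13839 genes tested in both these shares were 55.2% and 1.44%. For R4KO_1 and iR4, 18 members (48.6%) were called the same way and 4 (10.8%) opposite ways, beside 49% and 3.89% of all genes. A test of the difference itself, the iR4 effect minus the R4KO_2 effect in all 24 libraries, was passed by 9 members in the positive and 3 in the negative direction of 39 tested, against 20.3% of all genes. KRT6A (0.98 ± 0.083), KRT17 (0.96 ± 0.075), KRT14 (0.90 ± 0.075), KLF4 (0.72 ± 0.149), KRT16 (0.61 ± 0.147), TP63 (0.56 ± 0.084) and DSG3 (0.54 ± 0.095) were among the former. For TP63 and KRT17 the calls pointed in opposite directions, lower in R4KO_2_Vehicle and higher in iR4. For KRT5 (-0.01 ± 0.060), KRT13 (-0.04 ± 0.143), KRT7 (0.01 ± 0.080) and DSC3 (-0.02 ± 0.070) the difference did not pass the test.

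**Figure D3:**
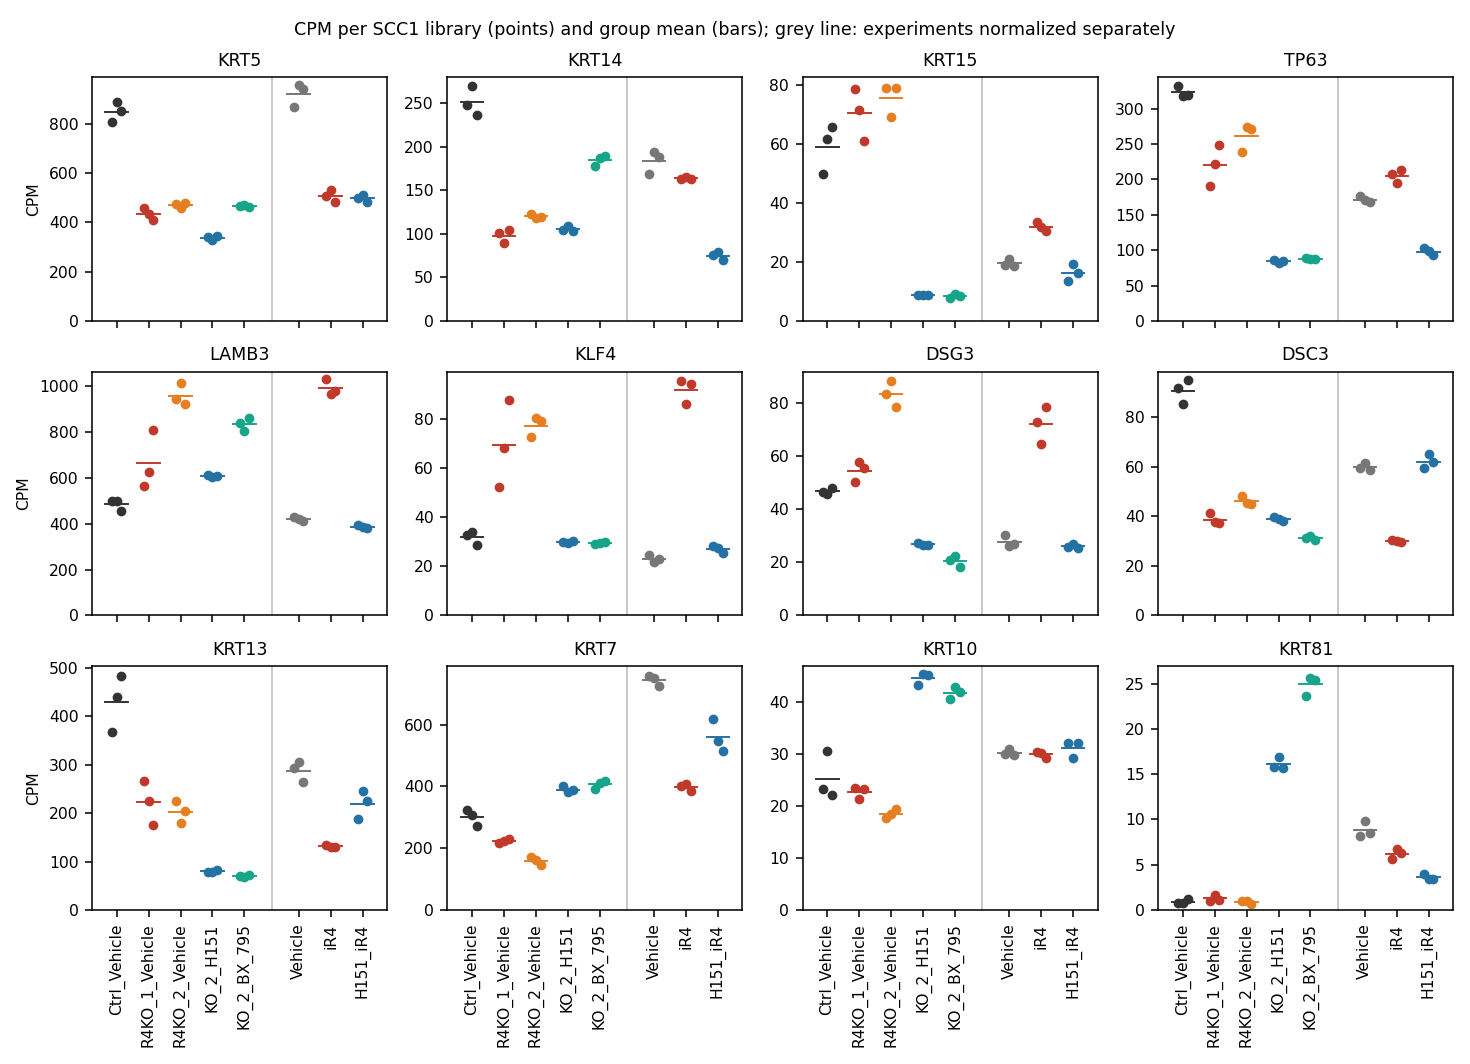
CPM of 12 members in each of the 24 SCC1 libraries (points) with the group mean (bar), linear axes from 0; the grey line parts the experiments, which were normalized separately. KRT81 is at 15.7 to 25.69 CPM only in the 6 inhibitor libraries of knockout 2, and KLF4 and DSG3 are high in R4KO_2_Vehicle and iR4 and low in every H-151 or BX-795 library.

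The cultures labelled as knockout 2 with H-151, which blocks STING, or with BX-795, which blocks TBK1, were set against R4KO_2_Vehicle. As given above, they also differed from it in REXO4 and PXDN, so an inhibitor effect and another difference between these cultures cannot be told apart. With H-151, 10 of 38 members were higher and 25 lower than in R4KO_2_Vehicle, against 72.7% of all genes called (35.7% higher and 37% lower), and the members' median was -0.37 beside -0.01 over all genes. With BX-795, 13 were higher and 20 lower, against 73.6% (36.4% and 37.1%), with a median of -0.20. Differentiated genes were mostly lower: of 10 tested, 8 were lower and 1 was higher with H-151, and 7 and 1 with BX-795. None of the 11 basal genes was higher with H-151 and 9 were lower; with BX-795 3 were higher and 6 lower. These comparisons share the R4KO_2_Vehicle libraries.

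KRT81 had the largest rise, from 0.955, 0.962 and 0.696 CPM in R4KO_2_Vehicle to 15.83, 16.96 and 15.7 with H-151 (4.20 ± 0.144, adjusted p = 1.66e-16) and 23.68, 25.69 and 25.47 with BX-795 (4.83 ± 0.135, 9.31e-18). In R4KO_1_Vehicle it stood at 1.02, 1.67 and 1.11 CPM, so both inhibitor groups lay far above both knockouts. KRT81 overlaps KRT86 on the opposite strand and is close to it in sequence, and whether counting used strand is not given; KRT86 itself was at 0.587 CPM in R4KO_2_Vehicle, 1.04 with H-151 and 1.64 with BX-795. KRT7 rose from 171.6, 161.8 and 145.9 CPM to 399.9, 380.4 and 387.1 (1.28 ± 0.056) and 392.7, 410.3 and 417.4 (1.35 ± 0.056). KRT10, the suprabasal keratin of skin whose upstream bases are printed above, rose from 17.77, 18.5 and 19.44 CPM to 43.26, 45.55 and 45.21 (1.27 ± 0.082) and 40.56, 42.97 and 42.07 (1.17 ± 0.082); TMEM99 overlaps it on the opposite strand. The rises of KRT80 (0.85 and 0.82), KRT18 (0.72 and 0.82), KRT6A (0.49 and 0.97) and KRT8 (0.26 and 0.22) also passed the test, as did those of KRT6B (1.99 and 2.81), which rest on 5 counts over R4KO_2_Vehicle, 26 with H-151 and 48 with BX-795. Without R4KO_2_Vehicle replicate 1 the KRT6B values were 2.67 and 3.49.

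KRT15 had the largest fall. It was at 79.02, 69.34 and 78.97 CPM in R4KO_2_Vehicle, 8.67, 8.91 and 8.76 with H-151 and 7.87, 9.19 and 8.50 with BX-795, log2 fold changes of -3.11 ± 0.105 and -3.16 ± 0.105. DSG3 went from 83.26, 88.21 and 78.49 CPM to 27.17, 26.68 and 26.68 (-1.63 ± 0.063) and 20.87, 22.28 and 18.22 (-2.03 ± 0.065). TP63 went from 238.5, 273.7 and 271.1 CPM to 86.74, 81.72 and 84.34 (-1.63 ± 0.067) and 88.42, 87.23 and 88.22 (-1.57 ± 0.067). In all 3 the inhibitor libraries lay below every vehicle library of both knockouts and of the control. KLK5 fell by 1.96 and 1.68, KLK7 by 1.66 and 1.71, KRT13 by 1.35 and 1.53, KLF4 by 1.37 and 1.39, TGM1 by 1.34 and 0.94, DSC2 by 1.0 and 1.41, PPL by 0.65 and 0.98, and KRT17 by 1.37 and 0.84. Of the adhesion genes, COL17A1 fell by 0.68 and 0.64, JUP by 0.47 and 0.45 and DSG2 by 0.22 and 0.28, while PKP3 rose by 0.29 and 0.25 and DSP by 0.19 with each. KRT14 went in different directions: it fell by 0.19 with H-151, to 102.8 to 108.8 CPM, and rose by 0.62 with BX-795, to 177.4 to 188.9. LAMB3 fell by 0.66 with H-151, to 614.6, 603.1 and 608.9 CPM. Against R4KO_1_Vehicle, 9 of the 10 members higher with H-151 and 19 of the 25 lower lay apart from its libraries on the same side, where 80.8% and 80.4% of all genes so called did. With BX-795 11 of 13 and 18 of 20 did, against 81.5% and 80.1%; the exceptions were DSP, KRT14, LAMA3, LAMB3, KRT16, DSC3 and KLK7 with H-151 and ITGA3, DSP, LAMB3 and KLK7 with BX-795. For DSP and LAMA3 the direction depended on the knockout taken. DSP, higher than in R4KO_2_Vehicle, was at 715.7 to 742.2 CPM with H-151 and 701.2 to 756.6 with BX-795, wholly below its 775.3 to 795.3 in R4KO_1_Vehicle. LAMA3, lower than in R4KO_2_Vehicle with H-151, was at 155.7 to 163.5 CPM, wholly above its 138.0 to 147.9 in R4KO_1_Vehicle.

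Set against Ctrl_Vehicle, 9 members were higher and 24 lower with H-151 (53% of all genes called, 26% higher and 26.9% lower) and 9 higher and 21 lower with BX-795 (55.7%, 27.7% and 28%). KLF4 lay at -0.09 (adjusted p = 0.581) with H-151, at 29.27 to 30.48 CPM beside 28.55 to 33.95 in the control. KRT81 (4.14 ± 0.147) was the highest above and KRT15 (-2.75 ± 0.108) the furthest below the control with H-151 among the 38. KRT5 (-1.33 ± 0.041), KRT14 (-1.25 ± 0.052), DSC3 (-1.22 ± 0.052), KRT13 (-2.44 ± 0.110) and TP63 (-1.94 ± 0.067) were lower than in Ctrl_Vehicle with H-151. LAMB3 (0.33 ± 0.079), KRT10 (0.82 ± 0.079), KRT80 (0.66 ± 0.054) and KRT7 (0.37 ± 0.055) were higher. KRT81 was at 0.775, 0.762 and 1.19 CPM and KRT10 at 23.25, 30.6 and 22.06 CPM in Ctrl_Vehicle. KRT80 was at 151.8, 164.3 and 147.0 CPM there and at 263.9, 233.0 and 235.1 with H-151. KRT13 was at 79.06, 78.22 and 81.47 CPM with H-151 and 69.67, 68.28 and 72.17 with BX-795, below all 3 controls. With BX-795, LAMB3 was at 839.8, 802.6 and 860.9 CPM, above the control by 0.79 ± 0.079. KRT16 was at 14.31, 14.24 and 13.58 CPM with BX-795 beside 8.70, 7.33 and 8.74 in Ctrl_Vehicle, a log2 fold change of 0.77 ± 0.095. After KRT81, LAMB3 and KRT16 had the largest rises above the control with BX-795 among the tested members at an average log2 CPM of at least 2.

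The inhibitors differed from each other in 14 of the 38 members, 9 higher and 5 lower with BX-795 than with H-151, against 9.67% of all genes called (5.67% higher and 3.99% lower). KRT14 differed most, at 177.4, 186.9 and 188.9 CPM with BX-795 and 104.9, 108.8 and 102.8 with H-151 (0.81 ± 0.052, adjusted p = 1.36e-09). KRT81 (0.63 ± 0.078) and KRT17 (0.53 ± 0.059) were also higher with BX-795, KRT17 at 415.6, 385.8 and 425.2 CPM beside 283.9, 284.3 and 279.5. KRT5, KRT6A, KRT16, ITGB4 and LAMB3 were higher too, with KRT6A at 0.48 and KRT16 at 0.45. DSC2 was at 6.81, 6.06 and 6.92 CPM with BX-795 and 8.58, 8.81 and 9.0 with H-151. DSC2 (-0.41 ± 0.096), DSG3 (-0.40 ± 0.071), PPL (-0.34 ± 0.070) and DSC3 (-0.32 ± 0.055) were lower. SOX2, at 8.60, 9.82 and 8.80 CPM beside 11.47, 12.79 and 11.98 (-0.42), was called lower in the fit of all libraries (adjusted p = 0.045) but lost the call without any 1 of the 6 libraries, at -0.38 to -0.47, and TGM1, at 0.40, lost its call without KO_2_BX_795 replicate 1 (0.36) or KO_2_H151 replicate 3 (0.35). Doses and times are not in the labels, so whether they were matched is not known.

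In the iR4 experiment H-151 was followed by lower KLF4, DSG3 and KRT16 and higher DSC3, SOX2 and KRT13. Against iR4 alone, 9 of 38 members were higher and 21 lower in H151_iR4, where 71.4% of all genes were called (35.1% higher and 36.3% lower), with a median of -0.19 beside -0.01. DSC3 went from 30.61, 30.21 and 29.63 CPM to 59.32, 65.11 and 61.78 (1.04 ± 0.048), SOX2 from 10.34, 9.88 and 9.88 to 16.41, 19.31 and 18.14 (0.85 ± 0.079), and KRT13 from 134.3, 130.8 and 129.8 to 187, 246.7 and 226.1 (0.74 ± 0.064). KLF4 went from 95.39, 86.01 and 94.24 CPM to 28.44, 27.27 and 25.4 (-1.77 ± 0.054), DSG3 from 72.74, 64.69 and 78.41 to 25.86, 26.99 and 25.4 (-1.46 ± 0.065), and KRT16 from 15.96, 14.46 and 12.84 to 5.53, 6.0 and 4.71 (-1.40 ± 0.107). None of these 6 pairs of groups overlapped. LAMB3 fell by 1.36, KRT17 by 1.37, KRT14 by 1.13, TP63 by 1.07 and CNFN by 1.91. IVL had 0 counts over the 3 H151_iR4 libraries, at least 5.65-fold lower than its 20 counts in iR4 on the TMM-scaled depths, with 3 counts over the group as the floor.

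Measured against Vehicle, H151_iR4 cultures had 1 member called higher and 24 called lower of 38, where 18.3% of all genes were called (8.71% higher and 9.58% lower), and the members' median was -0.24 beside 0.00 over all genes. The share called among members, 25 of 38, was well above that of all genes. Members were chosen with earlier results of these data known and were not matched to all genes by level. The excess is therefore a description and not a test. Of the 11 basal genes 9 were lower and none was higher. KRT14 was lower, at 75.28, 78.65 and 70.6 CPM beside 168.3, 194.5 and 188.2 in Vehicle (-1.29 ± 0.047, adjusted p = 3.16e-16), as were KRT81, at 3.99, 3.44 and 3.44 beside 8.18, 9.82 and 8.45 (-1.29 ± 0.121), and KRT5, at 498, 509.6 and 482.9 beside 865.8, 955.7 and 938.5 (-0.89 ± 0.039). In each the 3 H151_iR4 libraries lay below all 3 Vehicle libraries. TP63 was lower by 0.81, KRT17 by 0.61 and KRT6A by 0.46 on the log2 scale. KRT4, the partner of KRT13 in oral mucosa, was lower by 1.78, at 0.419 to 0.555 CPM beside 1.23 to 2.03. KLF4 was the member called higher, at 28.44, 27.27 and 25.4 CPM beside 24.39, 21.73 and 22.93 (0.23 ± 0.065, adjusted p = 0.0136), a call lost without H151_iR4 replicate 1 (0.20), H151_iR4 replicate 2 (0.22) or Vehicle replicate 2 (0.19). DSC3 (0.06 ± 0.045, adjusted p = 0.434), SOX2 (0.02 ± 0.072, 0.909) and DSG3 (-0.08 ± 0.074, 0.474) did not pass the test.

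The differences between H-151 cultures and their comparators were not the same in the 2 settings. KO_2_H151 also differed from R4KO_2_Vehicle in REXO4 and PXDN. REXO4 was at 56.94 to 61.92 CPM in iR4 and 86.98 to 91.01 in H151_iR4. No group held control cells with H-151, and the part of these differences in the H-151 results was not tested. Of 37 members tested in both, 20 (54.1%) were called the same way in KO_2_H151 against R4KO_2_Vehicle and in H151_iR4 against iR4, 4 higher and 16 lower, and 8 (21.6%) opposite ways, beside 48.3% and 7.61% of all genes; the comparisons share no library. The difference between the H-151 effects passed the test for 25 of 39 members, 14 positive and 11 negative, against 50.7% of all genes. It was largest for KRT81, at -4.99 ± 0.198, which rose by 4.20 with H-151 in knockout 2 and fell by 0.78 in iR4. KRT13 differed by 2.09 ± 0.149, DSC3 by 1.28 ± 0.072 and SOX2 by 1.26 ± 0.160. All of them were lower with H-151 than in R4KO_2_Vehicle and higher with H-151 in iR4. DSC3 with H-151, at 38.2 to 39.81 CPM, lay within its R4KO_1_Vehicle range of 37.16 to 41.48, so its fall depended on the knockout taken. KRT80 (-1.02 ± 0.071) and KRT6A (-0.72 ± 0.083) had the reverse pattern. ITGB4 (0.56 ± 0.091) and DSG2 (0.38 ± 0.054) were the other members called in opposite directions; the ITGB4 call in iR4 (0.09) was lost without H151_iR4 replicate 1 (0.04), H151_iR4 replicate 2 (0.10), iR4 replicate 2 (0.08) or iR4 replicate 3 (0.07). KRT15 fell in both but by 3.11 in knockout 2 and 0.94 in iR4 (difference 2.15 ± 0.157), and KRT10 rose by 1.27 in knockout 2 and was at 0.05 in iR4 (difference -1.22 ± 0.104). For KRT17 (-0.01 ± 0.076), DSG3 (0.16 ± 0.098), ITGA6 (0.01 ± 0.074) and LAMA3 (-0.03 ± 0.055) the difference did not pass the test.

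**Figure D4:**
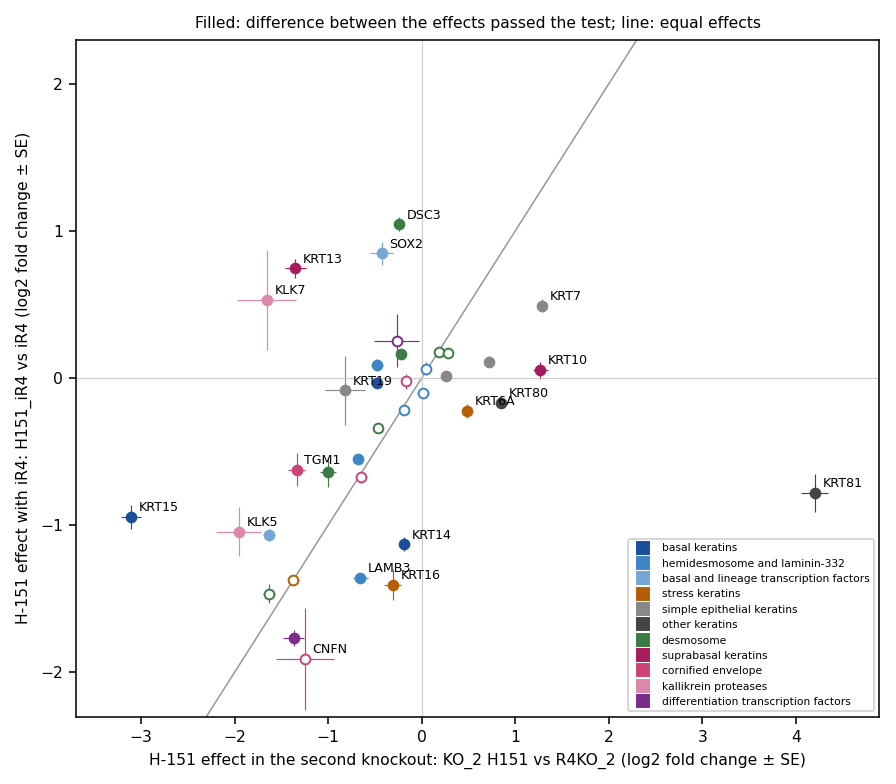
Log2 fold change ± SE with H-151 in knockout 2 (x axis) and in the iR4 cultures (y axis) for each member tested in both, colored by role and filled where the difference passed the test; the line marks equal effects. KRT81 lies at 4.20 and -0.78, and KRT13, DSC3 and SOX2 lie above 0 on the y axis and below 0 on the x axis. The x axis is taken against R4KO_2_Vehicle, and DSC3 with H-151 lay within its R4KO_1_Vehicle range.

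Other genes of squamous keratins, differentiation and adhesion, 72 of which have an ID in the human files, were counted in the same comparisons. Of 46 tested, 20 were higher and 17 lower in R4KO_1_Vehicle, 21 and 16 in R4KO_2_Vehicle, 12 and 29 with H-151 and 14 and 27 with BX-795. Of 48 tested, 21 were higher and 13 lower in iR4, 13 and 24 in H151_iR4 against iR4, and 2 and 13 in H151_iR4 against Vehicle. The shares called in these 7 comparisons were 80.4%, 80.4%, 89.1%, 89.1%, 70.8%, 77.1% and 31.2%, beside 64.5%, 66.2%, 72.7%, 73.6%, 71.9%, 71.4% and 18.3% of all genes. CLDN7, a tight junction claudin, rose by 1.25 in R4KO_1_Vehicle, 1.39 in R4KO_2_Vehicle and 1.57 in iR4. KLK10, a kallikrein beside KLK5 and KLK7 on chromosome 19, fell by 3.28 with H-151 and 3.27 with BX-795, from a mean of 14.4 CPM to 1.48 in each. HES1, a target of Notch signaling, fell by 1.14 in R4KO_1_Vehicle and 1.81 in R4KO_2_Vehicle and rose by 1.28 with H-151 and 1.84 with BX-795 against R4KO_2_Vehicle. The iR4 experiment did not show this pattern: HES1 was at 31.77 to 36.16 CPM in Vehicle, 34.06 to 38.33 in iR4 and 27.73 to 42.3 in H151_iR4. FLG, the gene of filaggrin, fell by 0.96 in iR4 and rose by 1.25 with H-151 in knockout 2 and by 1.11 in H151_iR4 against iR4.

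In the mouse tumors no member passed the test, 0 of 45 in either direction, where edgeR called 0% of 14523 tested genes. Of these genes, 655 had an unadjusted edgeR p under 0.05, among them 4 members, Krt15, Lama3, Lamb3 and Col17a1. The 655 are no larger a share than the 0.05 that would pass with no change in any gene, so the 4 are named as a description. DESeq2 called 87 genes higher and 58 lower in all, among them 1 member higher, Krt15 (3.35, adjusted p = 0.00335), and 2 lower, Lama3 (-2.15, 0.0114) and Lamb3 (-2.07, 0.00243). With 2 tumors against 2, both R4KO tumors lay above both Wt tumors for 4 members (16.4% of all genes did) and below them for 10 (14.2%), and 6 of those 10 were among the 10 basal genes measured. In bulk tumors fewer cells of a type and less RNA per cell cannot be told apart. Rexo4 was at 31.14 and 30.32 CPM in Wt and 17.44 and 14.93 in R4KO.

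Krt15 was at 38.37 and 178.5 CPM in the Wt tumors and 1525 and 728.9 in the R4KO tumors (log2 fold change 3.38 ± 0.886, adjusted p = 0.97). Lama3 was at 632.6 and 1235 CPM in Wt and 155.2 and 271.2 in R4KO (-2.13 ± 0.544, 0.97), Lamb3 at 807.9 and 1175 beside 180.1 and 298.4 (-2.05 ± 0.471, 0.97), and Col17a1 at 3269 and 1918 beside 1090 and 1087 (-1.25 ± 0.484, 0.999). The 6 hemidesmosome and laminin-332 members all had negative log2 fold changes, with a median of -1.10 that stayed between -0.87 and -1.27 when any 1 tumor was left out. Only 4 of them were lower without overlap. Itgb4 was at 747.6 and 1120 CPM in Wt and 815.4 and 611.3 in R4KO, and Itga3 at 258.1 and 377.6 beside 316.2 and 159.9. Jup was at 1394 and 1657 CPM in Wt and 1807 and 1761 in R4KO (0.23 ± 0.417, adjusted p = 0.999). Krt5 was at 12730 and 10230 CPM in Wt and 5967 and 9617 in R4KO, and Krt14 at 19880 and 28030 beside 9516 and 16530. The epithelial markers Epcam, Cdh1, Krt5, Krt14, Trp63 and Sfn summed to 36150 to 44060 CPM in Wt and 18480 to 29380 in R4KO. Krt5 and Krt14 made up most of that sum, so it is not a separate measure of epithelium. Of the other markers, Cdh1 was higher in R4KO, at 558.5 and 533.6 CPM beside 309 and 439.5 in Wt. Epcam, Trp63 and Sfn overlapped between the groups. The 8 fibroblast markers summed to 1313 to 2511 CPM in Wt and 647.4 to 1649 in R4KO. The 6 endothelial markers summed to 227.9 to 275.7 CPM in Wt and 172.4 to 211.3 in R4KO, and the 8 leukocyte markers to 28.32 to 45.08 and 62.94 to 121.8, both without overlap of the groups, with Cd8a at 0 in both Wt tumors and Cd79a in 1. The part of these cell types in these values was not tested.

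The differentiated genes followed single tumors and not the groups. Wt replicate 1 had the lowest value of the 4 tumors for 14 of the 17 differentiated genes. Krt13 was at 65.96 CPM there and at 7043 in Wt replicate 2, beside 2880 and 5818 in R4KO; Krt4 was at 0.451 and 1617, beside 484.8 and 1467; Sprr3 was at 0.282 and 328.7, beside 46.43 and 334.5; and Cnfn was at 16.7 and 857.1, beside 232.8 and 835.4. The Wt tumors thus differed from each other by 106.8-fold in Krt13, whose log2 fold change between the groups was 0.29 ± 1.696. The median log2 fold change of the 17 was 0.21 over all tumors, 2.36 without Wt replicate 2 and 0.77 without R4KO replicate 1, but -0.73 without Wt replicate 1 and -0.81 without R4KO replicate 2. R4KO replicate 1 held 2906 CPM of the 8 skeletal muscle markers, beside 11.06 to 377.5 in Wt and 30.73 in R4KO replicate 2; their part in these values was not tested. Sprr1b was at 68.04 and 1325 CPM in Wt and 159 and 540.2 in R4KO, and Ivl at 3.50 and 6.09 beside 0.568 and 2.63. The keratin members took 4.22 to 8.59% of all counts in the tumors.

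**Figure D5:**
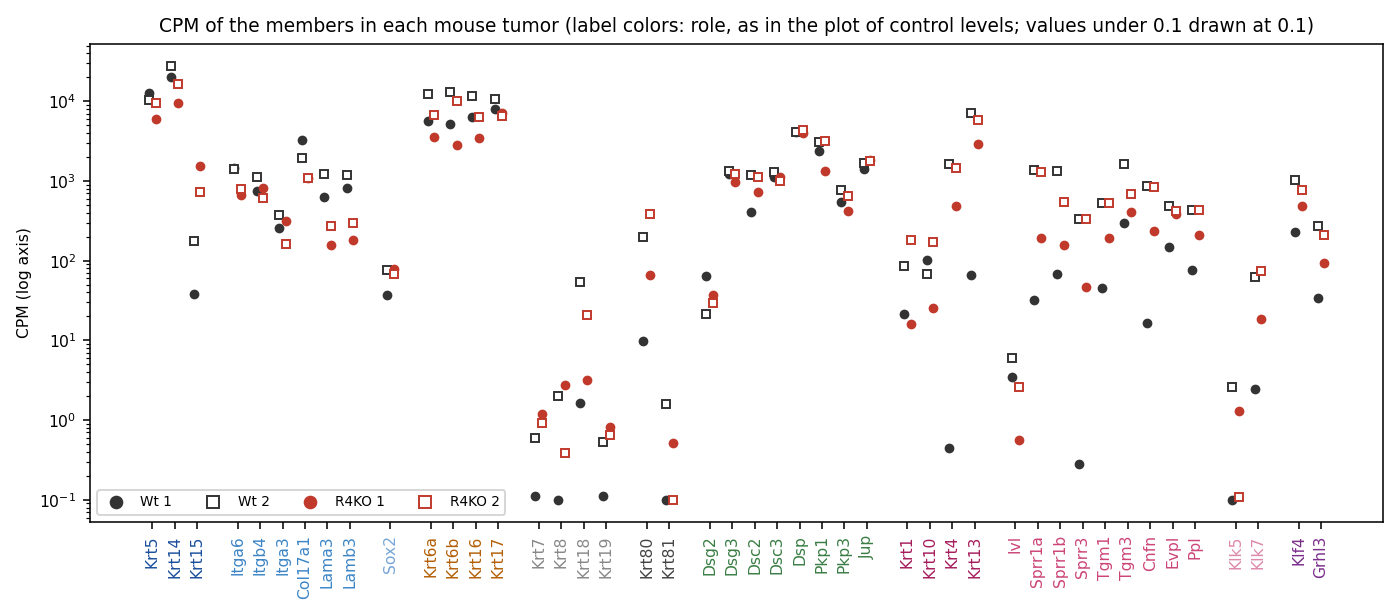
CPM (log axis) of the 45 members in each mouse tumor, Wt in black and R4KO in red, replicate 1 as filled circles and replicate 2 as open squares, ordered by role and with values under 0.1 drawn at 0.1. Krt15 lies higher and Lama3, Lamb3 and Col17a1 lie lower in both R4KO tumors, while Krt4, Krt13 and Sprr3 are far lower in Wt replicate 1 than in the other tumors.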

How the data were processed

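RNA was measured in 24 SCC1 and 4 mouse tumor libraries. Per the labels' protocols, RNA was freed of DNA, selected by its poly(A) tail, fragmented and reverse transcribed from random primers without a stated strand mark; the molecule field of the labels says genomic DNA, contrary to that protocol. The authors deposited raw counts of reads per gene, 1 file per library. For alignment the submitters' processing notes list HISAT2 2.2.1 and for counting featureCounts 2.0.1, beside Trim Galore 0.6.4 and FastQC 0.11.9 for read quality and DESeq2 1.42.0, with mm10 and hg38 as builds. Gene models and strandedness of the counting: not given in the sources used here. An ID listed under several symbols repeats its count in the files and was used once.

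Counts were fitted with edgeR 4.0.16 in R 4.3.3 (quasi-likelihood F test on TMM-scaled libraries, low genes removed by filterByExpr at a minimum count of 10), with Benjamini-Hochberg adjustment over all genes tested and a threshold of 0.05. The SE after each ± was derived from that test. It is the absolute log2 fold change divided by the square root of the F statistic, and so is approximate. One fit held the 15 libraries of the knockout experiment, one the 9 of the iR4 experiment, one the 4 mouse libraries, and one all 24 SCC1 libraries for the 2 differences between effects. DESeq2 1.42.0, other scaling factors, other filters, fits of the compared groups alone, a replicate block and the omission of each library were the alternatives. On simulated data the edgeR fit recovered 93.8% of 65 genes changed 2-fold for R4KO_1 against control (14101 genes, 11 false calls) and 86.4% of 66 for R4KO_2. At 1.5-fold it recovered 76.1% of 67 genes for R4KO_1. For the mouse comparison (14123 genes) it recovered 0 of 63 at 2-fold and 0 of 62 at 4-fold, so the lack of mouse calls does not show a lack of change. Far fewer genes were changed in the simulation than were called in the SCC1 knockout data. In SCC1, library values are given for the 3 largest rises and 3 largest falls among called members. Only members whose groups did not overlap and whose average log2 CPM reached 2 were eligible. In mouse, where edgeR called no member, the same rule was used without the call. Further members are named by role. Of the other epithelial genes chosen by the same rule, only 4 are given, picked after their values were seen, and 1 is not reported here. A group with no count is set at a floor of 3 counts over the group, and such bounds cover counting error only. The members, lists and rules were chosen with earlier results of these data known.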

Additional observations from a re-analysis of the deposited data

Results flagged for a closer look

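The iR4 effect differed from the R4KO_2 effect, by a test of the difference itself, for 12 of 39 members, where 20.3% of all genes passed that test. TP63 (difference 0.56) and KRT17 (0.96) were called in opposite directions, lower in R4KO_2_Vehicle than in Ctrl_Vehicle and higher in iR4 than in Vehicle. The effect of H-151 in iR4 differed from that in knockout 2 for 25 of 39 members, where 50.7% of all genes did. Those called in opposite directions were KRT13 (2.09), DSC3 (1.28), SOX2 (1.26), ITGB4 (0.56) and DSG2 (0.38), lower with H-151 in knockout 2 and higher in iR4, and KRT81 (-4.99), KRT80 (-1.02) and KRT6A (-0.72), the reverse. DSC3 with H-151 lay within its range in R4KO_1_Vehicle, at 38.2 to 39.81 against 37.16 to 41.48 CPM. The H-151 cultures of knockout 2 also differed from R4KO_2_Vehicle in REXO4 (17.01 to 19.78 against 5.03 to 7.11 CPM) and in PXDN (10.12 to 11.59 against 0.053 to 0.267 CPM). REXO4 differed between H151_iR4 and iR4 too (86.98 to 91.01 against 56.94 to 61.92 CPM). The part of this in these differences was not tested. Doses and times are not in the labels, so a difference between the settings and a difference in dosing cannot be told apart.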

How the results depend on the processing

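No count of members and no single call changed direction under any alternative that was run. Counts of members that moved by more than 1.5 times were those in mouse with DESeq2 (1 higher and 2 lower, from 0 and 0), the members with a positive difference between the iR4 and R4KO_2 effects with no filter (14, from 9), and the members higher in H151_iR4 than in Vehicle when a library was left out (0 to 1). Of 541 tests of a member in a comparison, DESeq2 lost 11 calls and added 4, upper-quartile factors lost 10 and added 8, and RLE factors left all 541 on the same side; omitting 1 library lost 111 and added 31 of 3623. The replicate numbers did not pair the SCC1 libraries: correlations of same-numbered deviations ran from -0.133 to 0.286, and only in H-151 against R4KO_2_Vehicle did 6 of 6 libraries correlate best with their own number. In mouse, with 2 tumors per group, the deviations within a group are exact opposites. Both pairs must then give the same r (0.248), and 4 of 4 best matches follow from its sign, so this cannot show pairing. With the replicate block 4 calls were lost and 1 was added: KRT5 in R4KO_2_Vehicle against R4KO_1_Vehicle had an adjusted p of 0.0527, and KRT15 in H151_iR4 against Vehicle was at -0.24 (adjusted p = 0.0459). Where a mouse group was left with 1 tumor, that tumor was assumed to vary like the other group. In SCC1, members under about 1 CPM rest on few counts.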
